A study of Mus musculus with 40 samples.

Results

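Megakaryocyte-erythroid progenitors (MEP) of mouse bone marrow were compared between Dnmt3a knockout (D3aKO) and wild type (WT). The comparison rests on 7 of the 40 libraries of the series, 4 labelled D3aKO (1 to 4) and 3 labelled WT (1, 3 and 4), chosen by the population and genotype in their labels. The knockout allele is described as Dnmt3a f/f with Mx1-Cre, a recombinase driven by an interferon-inducible promoter that is active in blood cells and in other interferon-responsive cells. How the recombinase was induced, the age and strain of the mice, the sorting gate, and whether WT mice carried the f/f allele or Mx1-Cre were not given in the sources used here. The labels name no animals, so p-values measure only the spread between libraries, which may be technical. Polyadenylated RNA was amplified by a modified SMART-Seq2 method, which copies full-length cDNA from small numbers of cells, and reads were counted per gene and per subfamily of transposable elements (TE). Sorted common and granulocyte-macrophage progenitors (CMP-GMP, 4 D3aKO and 4 WT libraries) and long-term haematopoietic stem cells (LT-HSC, 4 and 4) of the same genotypes served only to show where MEP differ.

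MEP are bone marrow cells that give rise to red cells and to megakaryocytes, the makers of platelets. GATA1, with TAL1, LMO2 and LDB1, drives genes of both branches, while KLF1 favours the erythroid and FLI1 the megakaryocytic branch. DNMT3A places methyl groups on unmethylated CG pairs of DNA and is often mutated in clonal haematopoiesis. Promoters of genes used in a single lineage are often poor in CG, whereas those of broadly used genes tend to lie in CG-rich islands.

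To show how far the genes described first differ in the substrate of DNMT3A, the 250 bases upstream of the start site that RefSeq lists for them are printed for 4 genes, 3 at higher and 1 at lower levels in D3aKO. Pf4 encodes platelet factor 4, a chemokine of megakaryocytes and platelets, and lies on chr5:90772185-90772434 (plus strand) with 1 CG pair. Mcpt8 encodes a protease of mouse basophils, and its stretch at chr14:56085198-56085447 (minus strand) holds 0 CG pairs. Fam134b, listed in RefSeq as Retreg1 and coding for a receptor of endoplasmic reticulum autophagy, lies at chr15:25843048-25843297 (plus strand) with 33 CG pairs. Pias3 encodes a SUMO ligase that inhibits STAT3, and its stretch at chr3:96696125-96696374 (plus strand) holds 7 CG pairs. The sequences read 5′ to 3′ on the strand of the gene in build GRCm38.p6, and capitals mark CG pairs.
Pf4: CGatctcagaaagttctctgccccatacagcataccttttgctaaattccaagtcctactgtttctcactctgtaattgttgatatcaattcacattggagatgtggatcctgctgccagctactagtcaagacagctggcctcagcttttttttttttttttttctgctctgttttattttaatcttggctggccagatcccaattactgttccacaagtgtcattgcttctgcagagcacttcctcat
Mcpt8: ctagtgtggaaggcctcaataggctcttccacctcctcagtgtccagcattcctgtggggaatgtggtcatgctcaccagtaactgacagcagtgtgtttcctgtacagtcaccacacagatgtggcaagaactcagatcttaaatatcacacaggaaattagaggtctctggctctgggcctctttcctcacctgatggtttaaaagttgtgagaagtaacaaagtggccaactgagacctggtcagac
Fam134b: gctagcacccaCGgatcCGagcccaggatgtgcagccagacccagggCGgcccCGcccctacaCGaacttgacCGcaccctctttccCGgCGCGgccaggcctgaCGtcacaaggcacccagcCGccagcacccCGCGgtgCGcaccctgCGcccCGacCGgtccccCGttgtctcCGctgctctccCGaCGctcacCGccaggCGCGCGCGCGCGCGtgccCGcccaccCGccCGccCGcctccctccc
Pias3: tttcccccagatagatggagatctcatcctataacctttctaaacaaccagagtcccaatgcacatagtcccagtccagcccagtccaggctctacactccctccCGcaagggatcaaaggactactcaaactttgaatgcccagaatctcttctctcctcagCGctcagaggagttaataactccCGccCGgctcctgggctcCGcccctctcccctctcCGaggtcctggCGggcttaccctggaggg
The stretch of Mcpt8 and the last bases of that of Pias3 lie inside the span RefSeq gives for the gene. The median over 27025 RefSeq promoters, 1 per gene, was 6 CG pairs in the same stretch. Of the 17 genes named by rule in the gene comparison, 10 have a promoter in the RefSeq table, and methylation was not measured in the data used here.

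Reads assigned to genes came to 34.8 M (1e6 reads) in D3aKO 1, 3.44 M in D3aKO 2, 24.3 M in D3aKO 3 and 25.9 M in D3aKO 4, and to 31.9, 36.0 and 29.0 M in WT 1, 3 and 4. D3aKO 3 and D3aKO 4 correlated at r = 0.995 (log2 of CPM + 1, where CPM is reads per M gene reads). Their counts differed by more than sampling noise, with a chi-square of 24.3 per degree of freedom, against 124.5 to 854 in the other MEP pairs. They were therefore summed and counted as 1 library, so that tests compare 3 D3aKO with 3 WT libraries. D3aKO 2, 3 and 4 stand apart from the other MEP libraries. D3aKO 1 and the 3 WT libraries correlated with each other at 0.923 to 0.950, and with D3aKO 2, 3 or 4 at only 0.734 to 0.837. The same pattern marked LT-HSC D3aKO 2 and LT-HSC WT 1 among LT-HSC, at 0.699 to 0.740 with the other libraries and 0.847 to 0.889 among those. In these 5 libraries Jund, a subunit of the AP-1 transcription factor, was at 735 to 1698 CPM, against 27.9 to 156 CPM in the other 18 sorted libraries, and TE reads per 100 gene reads were 9.41 to 12.4 against 2.22 to 8.16. Xist, transcribed from the inactive X, marked D3aKO 3, D3aKO 4, WT 3 and WT 4, and transcripts of the Y chromosome marked D3aKO 1, D3aKO 2 and WT 1. Values without these libraries are given beside the genes named by rule and the megakaryocytic and erythroid membrane lists. For the other lists only the levels of D3aKO 1 beside WT are given, and the part of the separation in those values was not tested.

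Dnmt3a (12: 3801559 to 3914443) was read first as a check of the labels. Its level was 10.8 CPM in D3aKO 1, 41.9 CPM in D3aKO 2, 1.64 CPM in D3aKO 3 and 1.16 CPM in D3aKO 4, against 49.5, 32.1 and 29.4 CPM in WT 1, 3 and 4. D3aKO 1, 3 and 4 lay below every WT library, while the library labelled D3aKO 2 lay above WT 3 and WT 4. The value of D3aKO 2 rests on 144 reads, with a Wilson interval at 95% of 35.6 to 49.3 CPM that covers counting error only. The log2 fold change over all libraries was -1.0 (SE 0.994, adjusted p = 0.815, edgeR quasi-likelihood test with Benjamini-Hochberg adjustment). Without the library labelled D3aKO 2 it was -2.54, with an adjusted p of 0.745 in edgeR. Which exons the allele removes was not given in the sources used here, and the reads of Dnmt3a overlap those of the antisense gene Dnmt3aos.

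**Figure D1:**
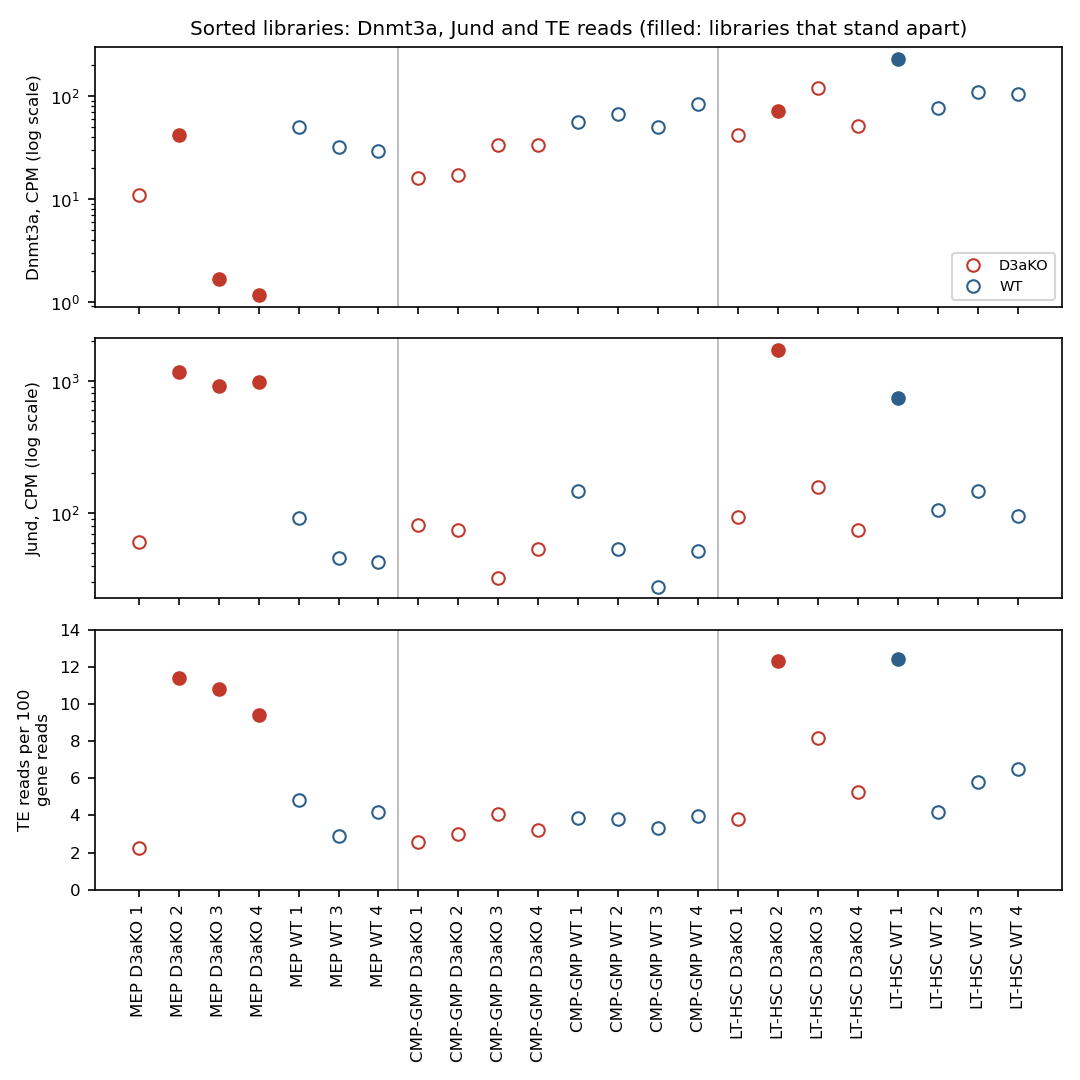
Level of Dnmt3a (top, CPM on a log scale), level of Jund (middle, CPM on a log scale) and TE reads per 100 gene reads (bottom) in each of the 23 sorted libraries; red is D3aKO, blue is WT, and filled points are the 5 libraries that stand apart. The 3 filled MEP points, all D3aKO, lie between 906 and 1155 CPM of Jund, while MEP D3aKO 1 lies with the WT libraries at 60.7 CPM.

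The labelled cell type was visible in every MEP library. The summed level of 11 MEP markers was 7970 to 16300 CPM, against 1400 to 2820 CPM in CMP-GMP and 2700 to 4680 CPM in LT-HSC. Car1 and Car2, carbonic anhydrases of erythroid cells, were at 2359 to 9128 CPM and 3537 to 5017 CPM. Of 8 CMP-GMP markers the summed level was 59.9 to 2890 CPM, against 6600 to 33000 CPM in CMP-GMP, and the highest value was that of D3aKO 2. Of 7 LT-HSC markers the summed level was 9.33 to 98.6 CPM, against 532 to 917 CPM in LT-HSC, and Fgd5 was at 0 in all 7 MEP libraries.

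In the edgeR fit of all MEP libraries no gene differed between D3aKO and WT at an adjusted p under 0.05. Of 12224 genes tested with edgeR's quasi-likelihood test, 0 were called (0%), and 952 had an unadjusted p under 0.05. DESeq2 called 142 genes (1.15%) and limma-voom 0, and leaving out D3aKO 1, the only D3aKO library that resembles WT, gave 1042 calls (8.04%) in edgeR. In 1 edgeR fit over the 3 populations 5 genes (0.031%) were called. Every D3aKO library lay above every WT library at 402 genes (3.29%) and below every one at 1258 genes (10.3%). Of the 1042 genes, 613 were higher and 429 lower in D3aKO 2, 3 and 4, and those 3 libraries all stand apart. Conversely, with the 5 libraries that stand apart left out of 1 fit over the populations, D3aKO 1 differed from the 3 WT libraries at 35 of 18940 genes (0.185%), 22 higher and 13 lower. That fit has a single D3aKO library in MEP, whose spread is assumed to be that of the other groups, so its calls compare that library with WT. With a term for the libraries that stand apart in place of leaving them out, 9 of 16106 genes were called (0.0559%), 3 higher and 6 lower. That term is shared by the MEP and the LT-HSC libraries that stand apart, and all of those in MEP are D3aKO. Genes are named below by a fixed rule, as those with the smallest unadjusted p whose libraries do not overlap between groups. The lack of overlap and a wide gap between the groups are thus part of the choice, and count as no support for a gene.

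Pf4 was higher in all 4 D3aKO libraries, whether they stand apart or not. Its level was 398 CPM in D3aKO 1, 263 CPM in D3aKO 2, 172 CPM in D3aKO 3 and 180 CPM in D3aKO 4, against 45.6, 70.1 and 42.4 CPM in WT 1, 3 and 4. The lack of overlap is part of the choice of the gene, and D3aKO 1 lay highest of all. The mean was 286 ± 92.3 CPM in D3aKO and 50.7 ± 15.7 CPM in WT (SD, n = 3 and 3). The log2 fold change was 2.50 (SE 0.446, unadjusted p = 0.000208, adjusted p = 0.609 in edgeR), which did not pass. DESeq2 over the same libraries called it (adjusted p = 0.000167), as did edgeR with no filter on low counts (adjusted p = 0.00147), which called 216 genes (1.17%). With D3aKO 1 alone against WT it was 2.97 with an adjusted p of 0.00385 in edgeR, and without D3aKO 1 it was 2.22 with an adjusted p of 0.0203 in edgeR. With a term for the libraries that stand apart it was 1.94 with an adjusted p of 0.602 in edgeR. The gene lies at 5: 90772435 to 90773383, downstream of the CG-poor stretch printed above.

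The level of Pf4 in the other populations differed in pattern. In CMP-GMP all 4 D3aKO libraries, at 298 to 638 CPM, lay above all 4 WT libraries, at 135 to 241 CPM, with a log2 fold change of 1.33 (SE 0.667, adjusted p = 0.953 in edgeR). In LT-HSC the D3aKO libraries were at 79.0 to 258 CPM and the WT libraries at 120 to 2191 CPM, the highest being LT-HSC WT 1, which stands apart. The difference of the effect between MEP and CMP-GMP was 1.18 (adjusted p = 0.726) and that between MEP and LT-HSC 4.88 (adjusted p = 0.175), both on the log2 scale in edgeR, and neither passed.

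Mcpt8 (14: 56082163 to 56085499) was nearly absent from WT MEP. Its level was 58.8 CPM in D3aKO 1, 16.9 CPM in D3aKO 2, 10.7 CPM in D3aKO 3 and 10.5 CPM in D3aKO 4, against 0.439 CPM in WT 1 and 0 CPM in WT 3 and WT 4. All D3aKO libraries lay above WT, with D3aKO 1 highest. The log2 fold change was 7.65 (SE 1.85, adjusted p = 0.609 in edgeR) over all libraries and 8.68 (adjusted p = 0.00954 in edgeR) for D3aKO 1 alone. DESeq2 called it over all libraries (adjusted p = 0.000103), as did edgeR with no filter on low counts (adjusted p = 0.000141). It did not pass without D3aKO 1 (6.67, adjusted p = 0.0900) or with the term for the libraries that stand apart (7.12, adjusted p = 0.529) in edgeR. Without WT 1, the only WT library with reads of the gene, the fitted value was 12.76, which depends on the prior count. Of 5 tested genes of basophils, mast cells and eosinophils, Ms4a2, a chain of the IgE receptor, also lay above WT in every D3aKO library. Its level was 7.41, 8.14, 24.8 and 17.5 CPM in D3aKO 1 to 4, and 5.33, 0 and 3.45 CPM in WT 1, 3 and 4. Prss34, another gene of the list, had a log2 fold change of 11.87 in edgeR with no filter on low counts (adjusted p = 4.04e-19). For D3aKO 1 against WT in MEP alone that of Prss34 was 13.43, and without D3aKO 1 the gene was not called. Its levels in single libraries are not given here. Cpa3 and Hdc of the same list did not lie above WT in every D3aKO library. Cpa3 was at 15.4, 0, 1.81 and 2.54 CPM in D3aKO and 22.7, 27.6 and 2.73 CPM in WT. Hdc was at 17.6, 4.65, 0.740 and 1.23 CPM in D3aKO and 17.2, 5.86 and 1.86 CPM in WT. The summed level of the 16 listed genes was 384 CPM in D3aKO 1, 53.5, 49.7 and 37.7 CPM in D3aKO 2 to 4, and 51.1, 33.5 and 9.08 CPM in WT. The part of such cells in the level of Mcpt8 was not tested. In CMP-GMP, Mcpt8 was at 11.5 to 133 CPM in D3aKO and 11.1 to 99.7 CPM in WT, and in LT-HSC it was at 89.5 CPM in WT 1 and at most 0.116 CPM in the other libraries.

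Fam134b (15: 25843298 to 25973696) was at similar levels in the D3aKO libraries that stand apart and in the one that does not. Its level was 63.3, 95.4, 106 and 88.2 CPM in D3aKO 1 to 4, against 20.9, 13 and 15.2 CPM in WT. The gap between the groups is part of the choice of the gene. The log2 fold change was 2.53 (SE 0.555, adjusted p = 0.609 in edgeR) over all libraries, 2.01 (adjusted p = 0.106) for D3aKO 1 alone, and 2.15 (adjusted p = 0.0767) with the term for the libraries that stand apart. In 1 fit over the 3 populations without that term it was 2.55 with an adjusted p of 0.0227 in edgeR, and DESeq2 over the MEP libraries called it too (adjusted p = 3.05e-05).

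Another 4 genes named at higher level were high in the 3 libraries that stand apart, with D3aKO 1 much nearer to WT. Ythdf1, a reader of N6-methyladenosine in RNA, was at 44.4 CPM in D3aKO 1 and 363, 289 and 273 CPM in D3aKO 2 to 4, against 43.7, 23.7 and 36.8 CPM in WT. Arf6, a GTPase of endocytic traffic, was at 29.6 CPM in D3aKO 1 and 164, 263 and 289 CPM in D3aKO 2 to 4, against 28.8, 16.2 and 19.4 CPM in WT. Rab2a, a GTPase of transport between endoplasmic reticulum and Golgi, was at 42.4 CPM in D3aKO 1 and 192, 162 and 141 CPM in D3aKO 2 to 4, against 33.9, 18.0 and 30.7 CPM in WT. D3aKO 1 exceeded the highest WT library only narrowly in these 3 genes. Ubl3, a ubiquitin-like membrane protein, was at 13.8 CPM in D3aKO 1 and 60.5, 65.2 and 54.1 CPM in D3aKO 2 to 4, against 6.09, 3.66 and 2.49 CPM in WT. Over all libraries their log2 fold changes were 2.38 to 3.61, and for D3aKO 1 alone they were 0.42 to 1.81, with no call in either edgeR fit. DESeq2 over all libraries called all 4, with adjusted p-values of 0.000738 to 0.0478.

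**Figure D2:**
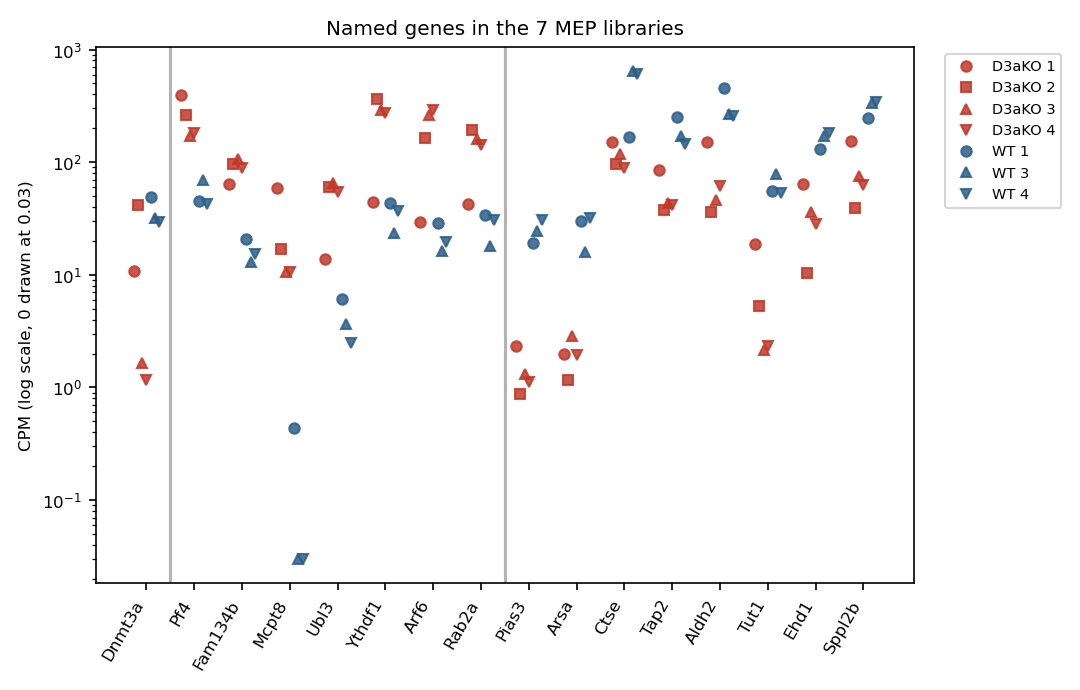
Level (CPM, log scale, 0 drawn at 0.03) of 16 of the 17 genes named by rule in the 7 MEP libraries, each point 1 library and each shape 1 replicate number; grey lines part Dnmt3a, the genes at higher and those at lower levels in D3aKO. Pf4 and Mcpt8 are highest in D3aKO 1, while Ythdf1, Arf6 and Rab2a of D3aKO 1 lie next to WT.

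Pias3 (3: 96696361 to 96706070) was lower in every D3aKO library. Its level was 2.33, 0.872, 1.32 and 1.12 CPM in D3aKO 1 to 4, against 19, 24.7 and 30.7 CPM in WT. The D3aKO libraries lay close together, whether they stand apart or not, and the gap to WT is part of the choice of the gene. The log2 fold change was -3.92 (SE 0.999, adjusted p = 0.609 in edgeR) over all libraries and -3.35 (adjusted p = 0.121) for D3aKO 1 alone. DESeq2 called it over all libraries (adjusted p = 3.24e-07), and 1 edgeR fit over the 3 populations did so too (-3.88, adjusted p = 0.0205). With the term for the libraries that stand apart Pias3 fell by 3.54 on the log2 scale, with an adjusted p of 0.0408 in edgeR. In CMP-GMP the groups overlapped, at 9.37 to 42.4 CPM in D3aKO and 19 to 32.8 CPM in WT. In LT-HSC every D3aKO library, at 24.6 to 43.9 CPM, lay above every WT library, at 15.1 to 21.6 CPM. The difference of the effect between MEP and LT-HSC was -4.90 on the log2 scale, with an adjusted p of 0.0502 in edgeR. Pias3 overlaps Nudt17, and whether the counting used strand was not given in the sources used here.

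Arsa, the lysosomal arylsulfatase A, was at 1.98, 1.16, 2.88 and 1.93 CPM in D3aKO 1 to 4, against 30.2, 15.9 and 32.3 CPM in WT. Here too D3aKO 1 lay with the other D3aKO libraries, and the log2 fold change was -3.63 (SE 0.970, adjusted p = 0.609) over all libraries and -3.65 (adjusted p = 0.324) for D3aKO 1 alone in edgeR. DESeq2 over all libraries called it (adjusted p = 3.46e-06). Ctse, cathepsin E, an aspartic protease found in red cells and their precursors, was at 151, 96.5, 118 and 88.7 CPM in D3aKO and 167, 640 and 603 CPM in WT. WT 1 lay next to D3aKO 1, far below the other WT libraries. Tap2, a subunit of the peptide transporter for MHC class I, was at 85, 37.8, 43.3 and 41.4 CPM in D3aKO and 250, 172 and 144 CPM in WT. Aldh2, the mitochondrial aldehyde dehydrogenase, was at 150, 35.8, 46.6 and 61.0 CPM in D3aKO and 457, 268 and 255 CPM in WT. In Tap2 and Aldh2 D3aKO 1 lay between the other D3aKO libraries and WT. The log2 fold changes of Ctse, Tap2 and Aldh2 were -1.89, -1.67 and -1.93 over all libraries and -1.58, -1.09 and -1.06 for D3aKO 1 alone, with no call in either edgeR fit. With no filter on low counts, edgeR over all libraries called Ctse and Aldh2 (adjusted p = 0.021 and 0.027). It did not call Tap2 (adjusted p = 0.134). The remaining 3, Tut1, a uridylyltransferase of U6 RNA, Ehd1, an ATPase of endocytic recycling, and Sppl2b, an intramembrane protease, had log2 fold changes of -2.77, -2.06 and -1.70. For D3aKO 1 alone these were -1.69, -1.28 and -0.93, with no call in either edgeR fit. With no filter on low counts, edgeR over all libraries called Ehd1 (adjusted p = 0.047). It did not call Tut1 or Sppl2b (adjusted p = 0.0654 and 0.080).

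Most megakaryocytic genes had a positive log2 fold change over all libraries, and they lay furthest above WT in D3aKO 1. Of 30 listed genes 25 passed the filter on low counts, and 24 of these had a positive log2 fold change over all libraries, against 6057 of 12224 of all genes tested. The median was 0.94 on the log2 scale, against -0.01 over all genes. In single libraries the median difference from the WT mean was 1.21 in D3aKO 1, 0.08 in D3aKO 2 and 0.12 in the sum of D3aKO 3 and 4, with 23, 15 and 13 of 25 genes positive. Over all genes these medians were -0.01, -0.49 and -0.10. Without D3aKO 1 the median log2 fold change of the list was 0.86, with 14 of 25 genes positive, and limma-voom over all libraries gave 0.68 and 16 of 25. The members that pass the filter describe these libraries and carry no test. With the libraries that stand apart left out, the median over 28 tested members was 1.33 in D3aKO 1 against WT, with 25 positive. The log2 fold changes of Cd9, Pf4, Plek and Mmrn1 in that fit were 1.81, 2.97, 2.18 and 4.19. These members are named because that fit, with its single D3aKO library in MEP, called them higher.

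Cd9, a tetraspanin of platelets and their precursors, was at 171 CPM in D3aKO 1 and 12.2, 1.07 and 1.08 CPM in D3aKO 2 to 4, against 58.1, 48.0 and 46.0 CPM in WT. Cd9 thus lay above WT in D3aKO 1 and below WT in D3aKO 2, 3 and 4. Plek, pleckstrin, a substrate of protein kinase C in platelets, was at 134, 209, 29.9 and 24.8 CPM in D3aKO 1 to 4, against 38.4, 31.7 and 21.8 CPM in WT. Mmrn1, multimerin of platelet granules, was at 33.7 CPM in D3aKO 1 and 4.07, 3.95 and 1.89 CPM in D3aKO 2 to 4, against 2.01, 3.55 and 0.0691 CPM in WT. Slc14a1, a urea transporter and the most abundant gene of the list, was at 438, 238, 138 and 127 CPM in D3aKO and 206, 281 and 227 CPM in WT. The groups overlapped in Plek, Mmrn1 and Slc14a1. Besides Pf4, every D3aKO library lay above WT in Itgb3, the integrin chain of the fibrinogen receptor, and F2rl2, a thrombin receptor, which makes 3 of 25 against 3.29% of all genes. Itgb3 was at 11.3, 48.3, 16.6 and 15.6 CPM in D3aKO and 6.31, 10.5 and 6.42 CPM in WT. F2rl2 was at 18.7, 3.49, 23.4 and 32.7 CPM in D3aKO and 1.76, 0.0555 and 2.56 CPM in WT. By contrast Itga2b, the partner chain of Itgb3, overlapped between the groups, at 107, 83.4, 62.0 and 61.3 CPM in D3aKO and 140, 71.2 and 49.4 CPM in WT. The transcription factor Fli1 was at 61.0, 164, 39.1 and 29.3 CPM in D3aKO and 65.1, 49.3 and 27.9 CPM in WT.

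**Figure D3:**
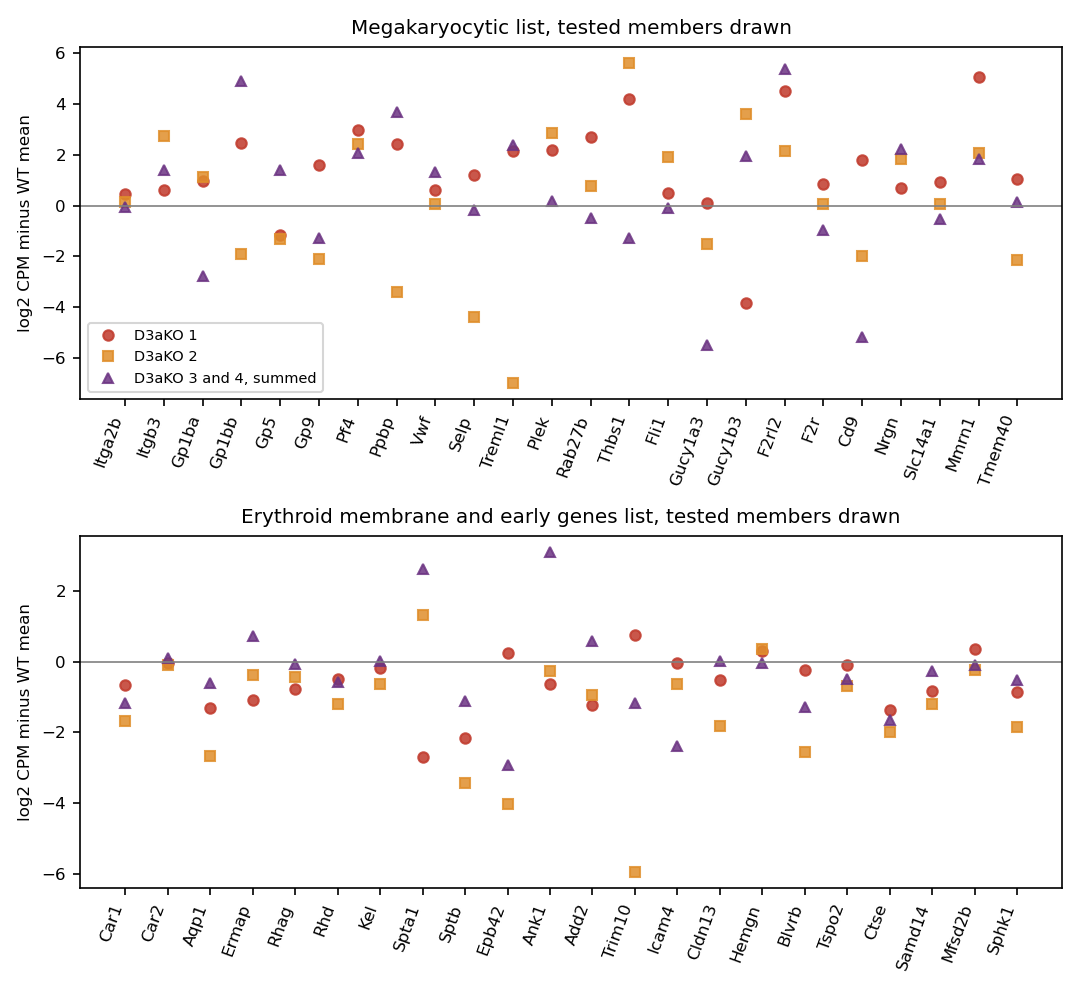
Difference of log2 CPM from the WT mean for 24 of the 25 tested genes of the megakaryocytic list (top) and 22 of the 23 of the list of erythroid membrane and early genes (bottom), in D3aKO 1, D3aKO 2 and the sum of D3aKO 3 and 4. Of the genes drawn, 22 of the megakaryocytic list lie above 0 in D3aKO 1, and 4 of the erythroid list do.

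Genes of the red cell membrane and of early erythroid cells lay lower. Of 23 tested genes 3 had a positive log2 fold change, the median was -0.72, and the medians in D3aKO 1, D3aKO 2 and the sum of D3aKO 3 and 4 were -0.54, -1.19 and -0.48, against -0.01, -0.49 and -0.10 over all genes. None passed over all libraries in DESeq2 or in edgeR with the filter on low counts. With no filter, edgeR called 1 listed gene, Ctse (-1.87, adjusted p = 0.021), against 1.17% of all genes. Every D3aKO library lay below every WT library in 7 of the 23 genes, including Aqp1, Car1, Ctse, Samd14, Sphk1 and Sptb, against 10.3% of all genes. With the term for the libraries that stand apart, the median of the list turned to 1.39, and Ctse to 3.30. No other setting turned that median. The term is shared with LT-HSC, where the libraries that stand apart had Ctse at 0.118 and 0.0996 CPM, and the others at 16.0 to 95.2 CPM. In MEP every D3aKO library had Ctse below WT, so the value of 3.30 does not describe its MEP levels. The part of LT-HSC in the turn was not tested. Leaving out the libraries that stand apart gave a median of -0.62 for D3aKO 1 against WT. Car1 was at 4887, 2359, 3127 and 2572 CPM in D3aKO 1 to 4, against 6801, 7789 and 9128 CPM in WT, with a log2 fold change of -1.11 (SE 0.385, unadjusted p = 0.0157 in edgeR). Aqp1, the water channel of red cells, was at 428, 162, 522 and 608 CPM in D3aKO and 1195, 842 and 1219 CPM in WT. In Car1 and Aqp1 D3aKO 1 lay below WT along with the libraries that stand apart. Car2 did not share this, at 4310, 4026, 4352 and 3537 CPM in D3aKO and 3786, 4729 and 5017 CPM in WT. The summed level of the list was 13120, 8723, 11290 and 9975 CPM in D3aKO 1 to 4, against 15380, 19320 and 21000 CPM in WT. In bulk libraries, fewer cells of a type and less RNA per cell cannot be told apart.

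Among the regulators of the erythroid branch, D3aKO 1 differed from the D3aKO libraries that stand apart. Of 15 tested genes 11 had a positive log2 fold change, with a median of 0.31, but the median was -0.41 in D3aKO 1 and 1.07 in the sum of D3aKO 3 and 4. Tal1 was at 47.9 CPM in D3aKO 1 and 445, 571 and 583 CPM in D3aKO 2 to 4, against 58.4, 77.2 and 79.6 CPM in WT. Zfpm1, the GATA1 cofactor FOG1, was at 8.99 CPM in D3aKO 1 and 69.5, 201 and 188 CPM in D3aKO 2 to 4, against 22.6, 9.30 and 14.7 CPM in WT. D3aKO 1 was thus below WT where the other 3 were several times above it. Klf1 was at 733, 113, 359 and 362 CPM in D3aKO and 563, 1312 and 883 CPM in WT, and Gata1 at 405, 199, 355 and 367 CPM in D3aKO and 407, 439 and 352 CPM in WT. Gfi1b was at 727, 117, 310 and 338 CPM in D3aKO and 434, 847 and 432 CPM in WT. In Klf1, Gata1 and Gfi1b the lowest library was D3aKO 2, and D3aKO 1 lay among WT.

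Of 14 tested genes of globin and haem synthesis 3 had a positive log2 fold change, with a median of -0.48, and of 13 iron genes 4 did, with a median of -0.46. None was called over all libraries in edgeR with the filter on low counts. With no filter, edgeR called 1 gene of each list, against 1.17% of all genes. Alad, the second enzyme of haem synthesis, was at 400, 181, 382 and 416 CPM in D3aKO and 611, 542 and 809 CPM in WT. The groups did not overlap in Alad. In the iron list Slc11a2, a ferrous iron transporter, Slc25a39 and Tfr2, a transferrin receptor that binds the erythropoietin receptor, lay below WT in every D3aKO library, 3 of 13 against 10.3% of all genes. Tfrc, the main transferrin receptor, was at 204 CPM in D3aKO 1 and 650, 764 and 639 CPM in D3aKO 2 to 4, against 195, 195 and 232 CPM in WT. Glrx5, a glutaredoxin of iron-sulphur cluster assembly, was at 46.1 CPM in D3aKO 1 and 1717, 644 and 649 CPM in D3aKO 2 to 4, against 62.4, 40.6 and 71.3 CPM in WT. Both were high only in the 3 libraries that stand apart, and DESeq2 called Glrx5 (adjusted p = 0.0175). The ferritin genes Fth1 and Ftl1 overlapped between groups, at 1346 to 3054 and 603 to 3772 CPM in D3aKO and 2817 to 3547 and 2647 to 3431 CPM in WT.

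Cytokine signalling, which sustains MEP through the receptors of erythropoietin, stem cell factor and other cytokines, was mixed. Of 22 tested genes 16 had a positive log2 fold change, with a median of 0.24. In 2 every D3aKO library lay above WT, against 3.29% of all genes, and in 4 every one lay below, against 10.3%. Stat5a, a transcription factor downstream of these receptors, was at 96.5, 44.5, 103 and 114 CPM in D3aKO and 190, 202 and 174 CPM in WT. Stat3 was at 71.2, 84.3, 97.6 and 108 CPM in D3aKO and 59.9, 55.4 and 39.5 CPM in WT. Pias2, a relative of Pias3, was at 8.59, 48.3, 82.8 and 73.9 CPM in D3aKO and 4.30, 4.91 and 6.77 CPM in WT. Stat5a lay below WT and Stat3 and Pias2 above it in every D3aKO library, as Pias3 lay below. Socs2, a feedback inhibitor induced by STAT5, was at 0, 0, 0.0822 and 0.308 CPM in D3aKO and 3.64, 3.72 and 1.31 CPM in WT, and Il3ra, the receptor chain of interleukin 3, was at 2.99, 1.16, 0 and 0 CPM in D3aKO and 11.8, 12.4 and 5.11 CPM in WT. None of these 6 passed in edgeR's fit of the MEP libraries with the filter on low counts. With no filter, edgeR called Pias2 (log2 fold change 3.30, adjusted p = 0.0329). DESeq2 called Pias2 (adjusted p = 0.0164) beside Pias3. Epor overlapped, at 181, 285, 328 and 292 CPM in D3aKO and 186, 290 and 289 CPM in WT, and so did Kit, at 219, 495, 253 and 246 CPM in D3aKO and 260, 280 and 358 CPM in WT.

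Of 20 tested stem cell genes 16 had a positive log2 fold change, with a median of 0.29. Meis1, a homeobox factor of stem cells, overlapped, at 110, 60.8, 18.0 and 13 CPM in D3aKO and 69.0, 48.5 and 46.2 CPM in WT.

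Interferon, nucleic acid sensing and inflammatory genes showed no common direction. Of 43 tested interferon-stimulated genes 23 had a positive log2 fold change, with a median of 0.05, and the medians were 0.21 in D3aKO 1, -1.63 in D3aKO 2 and -0.09 in the sum of D3aKO 3 and 4. Gbp3, an interferon-induced GTPase, was at 12.1, 10.5, 48.4 and 43.1 CPM in D3aKO and 4.24, 4.86 and 6.67 CPM in WT. Xaf1, an interferon-induced promoter of apoptosis, was at 19.7, 27.9, 33.9 and 30.1 CPM in D3aKO and 5.71, 1.47 and 9.67 CPM in WT. Usp18, which removes ISG15 from proteins, was at 4.63, 0.581, 6.99 and 5.16 CPM in D3aKO and 11.9, 16.1 and 11.9 CPM in WT. These 3 were the genes of the list whose groups did not overlap, 2 above WT, against 3.29% of all genes, and 1 below it, against 10.3%. Ifitm1, the most abundant, overlapped, at 344, 366, 179 and 218 CPM in D3aKO and 580, 368 and 152 CPM in WT. Of 17 genes of nucleic acid sensing 7 had a positive log2 fold change (median -0.29), of 18 genes of NF-kB and inflammation 8 (median -0.11), and of 18 genes of MHC class I presentation 8 (median -0.12). B2m was at 3133, 1770, 1368 and 1189 CPM in D3aKO and 2466, 2220 and 3089 CPM in WT.

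Genes of the DNA methylation machinery and of TE silencing were mixed. Of 16 tested genes of methylation and demethylation, 2 were above the WT mean in D3aKO 1, against 10 in D3aKO 2 and 10 in the sum of D3aKO 3 and 4. Dnmt3b, the other de novo methyltransferase, was at 8.51 CPM in D3aKO 1 and 129, 55.1 and 58.1 CPM in D3aKO 2 to 4, against 20.4, 40.6 and 15.1 CPM in WT. Dnmt1, the maintenance enzyme, was at 153, 158, 200 and 246 CPM in D3aKO and 272, 120 and 213 CPM in WT, and Uhrf1, which brings DNMT1 to replicated DNA, at 81.4, 170, 204 and 198 CPM in D3aKO and 244, 168 and 226 CPM in WT. Dnmt3b was lowest of all libraries in D3aKO 1, while Dnmt1 overlapped throughout. Of 19 tested genes of TE silencing 15 had a positive log2 fold change (median 0.31), but 6 in D3aKO 1. Of 10 tested imprinted genes 9 did (median 0.70), but 5 in D3aKO 1, and none of the 10 was free of overlap between the groups. Kcnq1ot1, an imprinted antisense RNA, was at 80.2 CPM in D3aKO 1 and 458, 347 and 303 CPM in D3aKO 2 to 4, against 195, 150 and 232 CPM in WT.

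Of 19 tested G1/S genes 6 had a positive log2 fold change (median -0.32). Mcm2, a subunit of the replicative helicase, was at 379, 169, 227 and 264 CPM in D3aKO and 484, 479 and 480 CPM in WT, below WT in every D3aKO library. Of 18 G2/M genes 9 had a positive log2 fold change (median 0.09). Ccnb1, the mitotic cyclin B1, was at 149, 32.6, 89.8 and 87.5 CPM in D3aKO and 172, 263 and 289 CPM in WT, and Plk1, a mitotic kinase, at 47.3, 44.8, 34.2 and 39.9 CPM in D3aKO and 86.9, 160 and 101 CPM in WT. Top2a, a topoisomerase of dividing cells, went the other way in D3aKO 2, 3 and 4, at 156, 543, 466 and 385 CPM in D3aKO and 242, 231 and 258 CPM in WT. The p53 targets (5 of 14 positive, median -0.55) and cholesterol synthesis genes (6 of 18, median -0.29) had no called gene in edgeR with the filter on low counts. With no filter, 1 gene of cholesterol synthesis was called, against 1.17% of all genes.

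**Figure D4:**
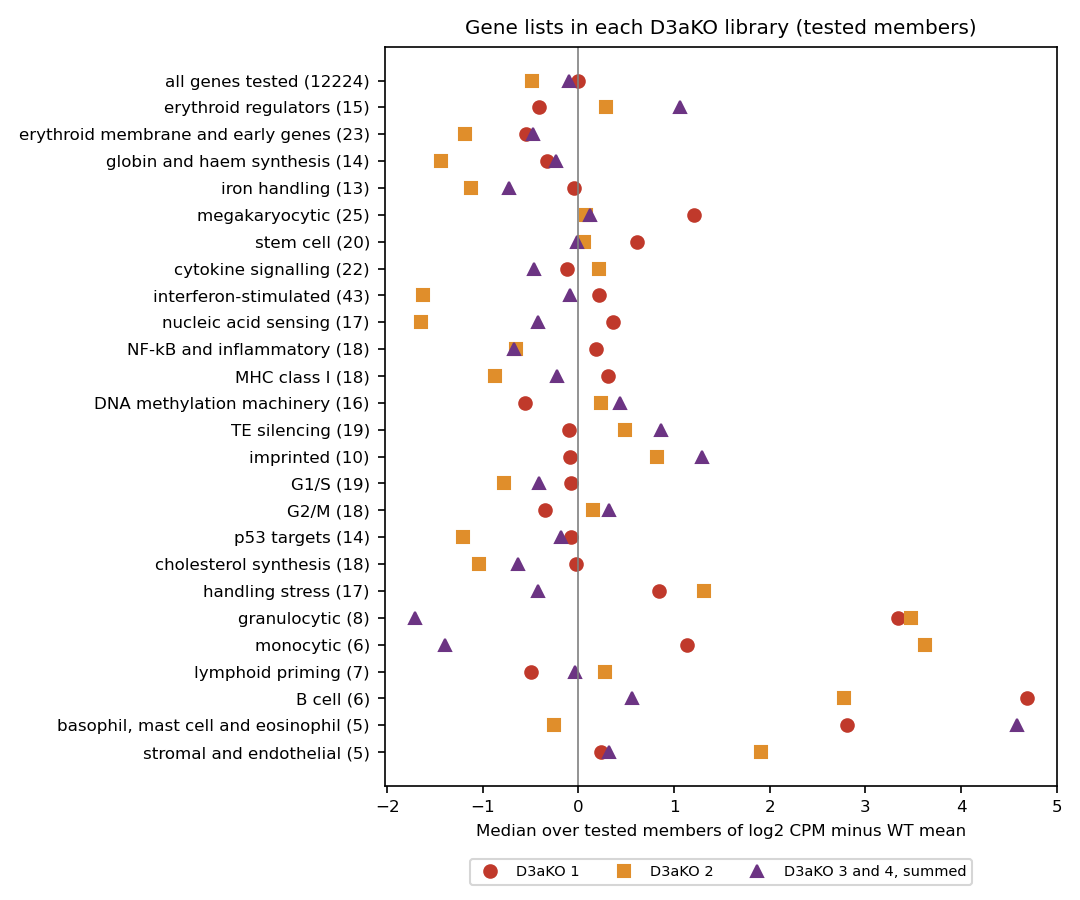
Median over the tested genes of each list (number in parentheses) of log2 CPM minus the WT mean, in D3aKO 1 (circles), D3aKO 2 (squares) and the sum of D3aKO 3 and 4 (triangles). The megakaryocytic median is 1.21 in D3aKO 1 and 0.08 and 0.12 in the others, while the erythroid membrane list lies below 0 in all 3.

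Markers of other cells moved with single libraries rather than with the genotype as a whole. The summed level of 20 granulocytic genes was 1239 CPM in D3aKO 1, 2855 CPM in D3aKO 2, 61.0 CPM in D3aKO 3 and 65.4 CPM in D3aKO 4, against 526, 323 and 76.7 CPM in WT. Mpo, myeloperoxidase, was at 590, 1884, 34 and 37.4 CPM in D3aKO and 268, 236 and 48.0 CPM in WT. D3aKO 1 and 2 were the highest and D3aKO 3 and 4 the lowest of the 7. The 13 monocytic genes summed to 144, 415, 18.8 and 15.8 CPM in D3aKO and 59.2, 58.4 and 29.3 CPM in WT. The 14 B cell genes summed to 364, 177, 44.4 and 42.3 CPM in D3aKO and 53.3, 22.6 and 38.5 CPM in WT. The 14 genes of resident macrophages summed to 201, 118, 91.2 and 81.4 CPM in D3aKO and 68.1, 83.6 and 128 CPM in WT. D3aKO 1 and D3aKO 2, and not D3aKO 3 and 4, thus carried more RNA of granulocytic, monocytic and B cell genes than WT. Cd74, the invariant chain of MHC class II, was at 141 CPM in D3aKO 1 and 0.771 CPM or less in D3aKO 3, D3aKO 4 and all WT libraries. The part of these cells in the results of D3aKO 1 was not tested. The 18 genes of handling stress summed to 16670, 17800, 10960 and 10640 CPM in D3aKO and 13620, 11480 and 7855 CPM in WT. Over its 17 tested genes the median difference from the WT mean was 0.84 in D3aKO 1 and 1.31 in D3aKO 2. It was -0.42 in the sum of D3aKO 3 and 4. Of these genes 16, 11 and 7 were positive, in that order. Hsp90aa1, a heat shock protein, was at 2613 CPM in D3aKO 1 and 7214, 6372 and 5911 CPM in D3aKO 2 to 4, against 2421, 1791 and 1836 CPM in WT.

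Transposable elements were higher in 3 of the 4 D3aKO libraries. TE reads per 100 gene reads were 2.22 in D3aKO 1, 11.4 in D3aKO 2, 10.8 in D3aKO 3 and 9.41 in D3aKO 4, against 4.85, 2.87 and 4.18 in WT 1, 3 and 4. D3aKO 1 was the lowest library and the 3 that stand apart were the highest. The mean was 7.90 ± 4.96 in D3aKO and 3.97 ± 1.01 in WT (SD, n = 3 and 3), and the difference of 3.93 was not larger than the spread (two-sided exact permutation test, p = 0.40, smallest possible 0.10, adjusted p = 0.56 over 7 measures). Without D3aKO 1 the difference was 6.77, and without D3aKO 2 it was 2.19. SINE, short elements copied by the enzymes of LINE, made up 62.0, 69.8 and 66.0% of TE reads in D3aKO 2 to 4, against 53.3% in D3aKO 1 and 50.2 to 59.7% in WT. LTR elements made up 16.2, 12.1 and 13.7% in D3aKO 2 to 4, against 24.4% in D3aKO 1 and 18.5 to 21.6% in WT. LT-HSC WT 1, which stands apart and is WT, had 12.4 TE reads per 100 gene reads.

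**Figure D5:**
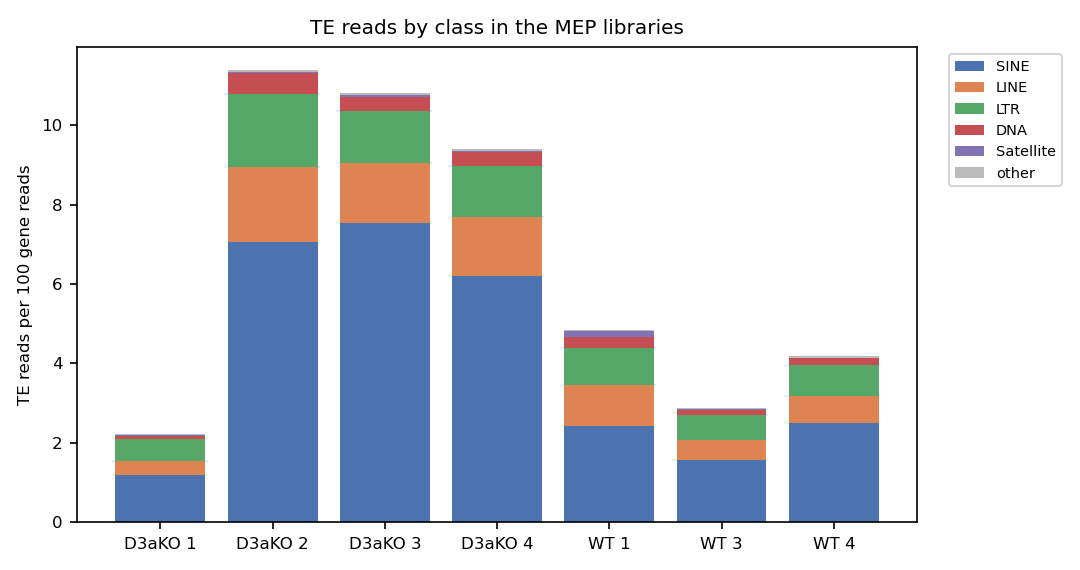
TE reads per 100 gene reads in each MEP library, stacked by TE class. D3aKO 2, 3 and 4 reach 9.41 to 11.4, and D3aKO 1, at 2.22, lies below the WT libraries, at 2.87 to 4.85.

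Of 849 TE subfamilies tested 0 were called higher (0%) and 1 lower (0.118%) in edgeR, with 96 at an unadjusted p under 0.05, and limma-voom called 180 and DESeq2 0. The median log2 fold change was 0.78 with the scaling of the gene counts, -0.78 in D3aKO 1, 1.12 in D3aKO 2 and 1.01 in the sum of D3aKO 3 and 4, and -0.02 with library sizes of the TE counts. Directions of single subfamilies are thus relative to the scaling. Every D3aKO library lay above WT in 9 subfamilies (1.06%) and below in 53 (6.24%). The called subfamily, SYNREP_MM, a satellite, was at 0.115, 0, 16.9 and 9.48 CPM in D3aKO and 758, 1.08 and 3.52 CPM in WT, with a log2 fold change of -5.50 (SE 1.01, adjusted p = 5.1e-05 in edgeR). It rests on WT 1 alone, and without that library the value was 1.31. LTR107_Mam, Charlie12 and L1MEd had the smallest unadjusted p among higher values. L1MEd, a LINE subfamily, was at 19, 149, 290 and 875 CPM in D3aKO and 65.0, 28.7 and 22.8 CPM in WT, with D3aKO 1 below WT. Charlie12, a DNA transposon, was at 2.33, 120, 38.6 and 32.3 CPM in D3aKO and 5.93, 6.94 and 8.01 CPM in WT, again with D3aKO 1 below WT. LTR107_Mam was at 26.2 CPM in D3aKO 2 and at most 0.925 CPM elsewhere.

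The effect of the knockout in MEP was set against that in CMP-GMP and LT-HSC in 1 fit over the 3 populations. Of 16106 genes 0 differed between MEP and CMP-GMP (0%, 1569 at an unadjusted p under 0.05) and 0 between MEP and LT-HSC (0%, 1798) in edgeR. DESeq2 gave 529 and 718. Of the 16 genes named with Dnmt3a set aside, Pf4 was the only 1 whose D3aKO libraries all lay above WT in CMP-GMP too, and Pias3 was the only 1 that did not overlap in LT-HSC, in the other direction. The share of all genes free of overlap was counted in MEP only. Whether Pf4 in CMP-GMP or Pias3 in LT-HSC exceeds what is usual there was thus not tested. Dnmt3a itself was lower in all 4 D3aKO libraries of CMP-GMP, at 15.8 to 33.5 CPM against 49.8 to 83.0 CPM in WT.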

How the data were processed

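The authors deposited unnormalized read counts, 1 table by gene symbol and 1 by TE subfamily. Per the submitters' processing notes, the tools were Trim Galore 0.6.7, HISAT2 with build mm10, featureCounts 2.0.1 and DESeq2 1.34.0. The annotation, the strand setting and the handling of multi-mapping reads were not given in the sources used here, so genes that overlap on opposite strands and near-identical copies are uncertain. Groups and replicate numbers come from the labels. Of the 40 gene columns, 8 could not be matched to 1 library and were not used. The gene test, run in R 4.3.3, was edgeR's quasi-likelihood test (version 4.0.16, TMM normalization, filterByExpr with a minimum count of 10 and a minimum total of 15, Benjamini-Hochberg adjustment over all features tested, called at an adjusted p under 0.05). D3aKO 3 and 4 were summed. TE subfamilies were scaled as the genes were, by gene totals and TMM. The effects in MEP, CMP-GMP and LT-HSC were compared by interaction contrasts in 1 fit. Standard errors were computed from the log2 fold change and its F statistic, and log2 CPM of single libraries used a prior count of 2. DESeq2 1.42.0 and limma 3.58.1 (voom with quality weights), other scalings, filters and terms, and leaving out each replicate were alternatives. The script was tested on simulated data. The precision of single values is limited by depth, which was 3.44 M gene reads in the library labelled D3aKO 2 and 24.3 to 36.0 M in the other 6. Libraries were said to stand apart where, leaving out the near-identical pair D3aKO 3 and 4, no correlation with another library of their population exceeded 0.85, a rule set after their values were seen. The members and gene lists were chosen with earlier results of these data known.

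Named genes are Dnmt3a and, since no gene was called, the 8 with the smallest unadjusted p in each direction among genes whose mean reached 5 CPM, whose groups did not overlap and whose symbols are not those of predicted genes. In gene lists without a called gene, the 2 most abundant members, and any other member named, are given as values. Members beyond the 2 most abundant were chosen after their values were seen. A few genes that these rules name are not reported here, although the counts and medians include them. Positions are those of RefSeq for GRCm38.p6, the same assembly as mm10, matched by symbol for 32501 and by older symbol for 1015 of 35976 symbols. Promoter sequences are from RefSeq. Only 77.5% of the tested genes have a promoter in that table, so no comparison of promoters over all genes was made.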

Additional observations from a re-analysis of the deposited data

Results flagged for a closer look

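Pias3 differed in direction between populations. In MEP every D3aKO library lay below every WT library, with a log2 fold change of -3.92, while in LT-HSC every D3aKO library lay above every WT library, with a log2 fold change of 1.02 (adjusted p = 0.679 in edgeR). The difference of the effects between MEP and LT-HSC was -4.90 on the log2 scale, with an adjusted p of 0.0502 in edgeR, which missed the threshold. In LT-HSC 1 library of each genotype stands apart, and without them Pias3 was at 38.8 to 43.9 CPM in D3aKO and 18.2 to 21.6 CPM in WT. The share of all genes free of overlap in LT-HSC was not counted.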

How the results depend on the processing

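The count of called genes, 0 over all libraries, was 142 with DESeq2 and 216 with no filter on low counts. It was 5 in 1 fit over the 3 populations, 35 with the libraries that stand apart left out, 9 with a term for them, and 18 for D3aKO 1 against WT in MEP alone. Leaving out 1 library at a time gave 0 to 1042 genes, the highest without D3aKO 1, and of those 1042 genes DESeq2 over all libraries also called 44. The count of called TE subfamilies, 1, was 0 with D3aKO 3 and 4 apart, DESeq2, 1 fit over the populations, a sex term, library sizes of the TE counts or a term for the libraries that stand apart. It was 2 with RLE size factors, 4 with no filter, 5 for D3aKO 1 against WT, 180 with limma-voom, and 0 to 289 with 1 library left out, the highest without D3aKO 1. The difference of effects between MEP and CMP-GMP gave 2 genes with no filter, 529 with DESeq2, 2 with a term for the libraries that stand apart, 9 without them, and 0 to 582 with 1 library left out. The difference between MEP and LT-HSC gave 1 gene with the libraries as deposited, 23 with no filter, 718 with DESeq2, 1 with the term, 10 without those libraries, and 0 to 502 with 1 library left out, both highest without D3aKO 1. The cause was not tested. Libraries of the same replicate number did not deviate together (r of -0.03, -0.07 and 0.09 for numbers 1, 3 and 4). These values cannot show whether the numbers pair the libraries. The marks of sex matched between the genotypes at numbers 1 (Y), 3 and 4 (Xist). With the replicate block 0 genes, 1 TE subfamily and 0 and 0 genes of the 2 population differences were called. That subfamily was MER66-int, at a higher level, and not SYNREP_MM.

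Directions turned in a few values. The difference of TE reads per 100 gene reads was -1.75 for D3aKO 1 beside WT, made of -0.982 for SINE, -0.370 for LINE, -0.230 for LTR, -0.107 for DNA elements and -0.00786 for other elements, and that of satellites was -0.0574 to 0.00988 with 1 library left out, above 0 without WT 1. SYNREP_MM turned to 1.06 with the replicate block and was at -11.31 to 1.31 with 1 library left out, above 0 without WT 1, and Ctse turned to 3.30 with the term for the libraries that stand apart. Without those libraries LTR107_Mam was at -6.18, Charlie12 at -1.52 and L1MEd at -0.96, against -5.96, -1.53 and -0.98 for D3aKO 1 in MEP alone, and Charlie12 was at -0.35 with the term. Of 419 values of single genes and subfamilies under the alternatives, 348 kept their direction and side of the threshold, 50 passed it newly, 11 no longer passed and 10 turned. D3aKO 2, at 3.44 M gene reads, limits what low genes can show.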

Other observations

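Some genes called in D3aKO 1 against WT, with the libraries that stand apart left out, are not described above and were chosen after their values were seen. Gnb5, a beta subunit of G proteins, was at 19.6 CPM in D3aKO 1, 0.581 CPM in D3aKO 2 and 0 CPM in D3aKO 3, D3aKO 4 and all WT libraries. Hmox1, which breaks down haem and is 1 of the 14 listed genes of resident macrophages, was at 15.6 CPM in D3aKO 1, 1.16 CPM in D3aKO 2 and 0 CPM in the other 5. Serpinf1, a secreted serpin, was at 3.74 CPM in D3aKO 1 and 1.16 CPM in D3aKO 2, and at most 0.0771 CPM in the other 5. The fit with the term for the libraries that stand apart also called these 3 higher (adjusted p = 0.0425, 0.0441 and 0.00105 in edgeR). That fit is not independent of D3aKO 1, since every other D3aKO library of MEP stands apart. D3aKO 3 and 4 lay at WT levels. Tmsb4x, an actin-binding peptide abundant in platelets, was at 778 CPM in D3aKO 1 against 348, 224 and 210 CPM in WT (log2 fold change 1.63, adjusted p = 0.0131 in edgeR). Ercc2, a helicase of transcription factor TFIIH, was at 0.287 CPM in D3aKO 1 against 39.0, 16.7 and 35.1 CPM in WT, with a log2 fold change of -6.64 (adjusted p = 0.0365 in edgeR).

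Transcript length, taken as that of the longest transcript of a gene, went with the difference from WT in opposite directions in D3aKO 1 and the other D3aKO libraries. Over 11287 genes with a length (92.3% of those tested), the median log2 difference in the shortest and the longest 25% was 0.16 and -0.26 in D3aKO 1, -0.98 and 0.46 in D3aKO 2, and -0.41 and 0.58 in the sum of D3aKO 3 and 4. Genes are not independent replicates, and the part of length in the results was not tested.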
